A study of Homo sapiens with 9 samples.

Results

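The 6p22 window is the part of chromosome 6 from 26000000 up to but below 29000000 (hg19), the home of the main cluster of replication-dependent histone genes together with many tRNA and zinc finger genes. Its members are all CUT&Tag peaks of the series whose summit, the point of strongest signal in a peak, lies between those limits. There were 257 of them: 83 of the 6794 anti-HA peaks of cells with HA-tagged BAZ2B, 152 of the 17018 H3K4me3 peaks of the same cells, and 22 of the 2389 anti-HA peaks of untagged cells. These totals cover chromosomes 1 to 22, X and Y. Membership used position alone, so heights and widths of the peaks played no part in the choice.

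All 9 libraries came from A549, an established line of human lung adenocarcinoma, with 3 replicates in each of 3 groups. The HA-BAZ2B group holds A549 cells with an HA epitope inserted at the 5′ end of the endogenous BAZ2B gene, profiled with an anti-HA antibody. The H3K4me3 group holds the same tagged cells profiled for trimethylated lysine 4 of histone H3, a mark of active promoters. The WT group holds wild-type A549 cells without the tag, profiled with the anti-HA antibody, and gives the background of that antibody. The labels' protocols also mention an siRNA transfection, which no label assigns to a library, and the sources used here do not say whether the tagged line is a single clone. CUT&Tag directs a transposase to antibody-bound chromatin and sequences the released fragments. For each group there was 1 peak list, which holds those peaks of 1 replicate that recurred in at least 2 replicates. No value has a replicate error, no test over samples could be made, and library depth is unknown. Fold enrichment and −log10 q are the authors' values for each peak and are not scaled between lists. Intervals on shares are exact 95% binomial (Clopper-Pearson) intervals over peaks and cover counting error only.

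BAZ2B is a bromodomain protein that binds acetylated histone tails and works as an accessory subunit of ISWI-type nucleosome remodelers. The series title ties remodeling that depends on the BAZ2 proteins to the suppression of G-quadruplexes, stacked folds of guanine-rich DNA. Replication-dependent histone genes supply histones during S phase from short, intronless transcripts that end in a stem-loop and not in a poly(A) tail. Transfer RNA genes are read by RNA polymerase III from promoter elements inside the gene. SCAN and KRAB zinc finger genes encode DNA-binding proteins, many of which are transcriptional repressors.

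The genes of the stretch were listed by name and order only, from RefSeq on GRCh38.p14, since no annotation of hg19 was used here. From H1-1 to ZNF311, the genes at its ends by general knowledge of the map, the list held 53 protein-coding histone genes. These were 6 linker histone H1, 11 H2A, 14 H2B, 10 H3 and 12 H4 genes. The list also held 144 of the 465 tRNA genes of the RefSeq table, 14 zinc finger genes such as ZSCAN9 and ZKSCAN3, and 6 butyrophilin genes, which encode immunoglobulin-like membrane proteins. Among protein-coding genes in map order, the histone genes fell into runs of 9, 23, 5 and 16, and most zinc finger genes came after the last of these runs. No peak was assigned to a gene.

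Most histone promoters of the stretch are AT-rich and carry classical boxes. The 250 bases before the annotated start follow for the first gene of each core histone family in map order with a promoter table entry. These are RefSeq sequences on GRCh38.p14, chosen by family and not by a peak. Capitals mark TATAAA (the TATA box), CCAAT (the CCAAT box) and ATTTGCAT (the octamer bound by OCT1), each on either strand. Of these, the H4C2 stretch holds only TATAAA.
H2AC4 (an H2A gene, chr6:26033619-26033868, minus strand): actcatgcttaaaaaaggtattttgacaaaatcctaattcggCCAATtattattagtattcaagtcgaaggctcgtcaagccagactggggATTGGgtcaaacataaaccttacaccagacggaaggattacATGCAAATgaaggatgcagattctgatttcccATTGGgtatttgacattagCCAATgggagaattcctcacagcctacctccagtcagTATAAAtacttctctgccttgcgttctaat
H2BC3 (an H2B gene, chr6:26043714-26043963, minus strand): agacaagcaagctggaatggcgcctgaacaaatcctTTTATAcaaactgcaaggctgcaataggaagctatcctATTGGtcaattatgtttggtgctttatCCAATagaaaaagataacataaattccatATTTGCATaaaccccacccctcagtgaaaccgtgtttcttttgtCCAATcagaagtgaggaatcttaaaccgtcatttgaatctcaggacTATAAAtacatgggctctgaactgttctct
H3C1 (an H3 gene, chr6:26020201-26020450, plus strand): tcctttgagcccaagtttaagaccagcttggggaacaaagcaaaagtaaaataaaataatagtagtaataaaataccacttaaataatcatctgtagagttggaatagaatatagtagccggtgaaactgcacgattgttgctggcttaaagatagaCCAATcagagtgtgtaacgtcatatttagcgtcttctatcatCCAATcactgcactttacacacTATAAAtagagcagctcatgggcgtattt
H4C2 (an H4 gene, chr6:26027284-26027533, minus strand): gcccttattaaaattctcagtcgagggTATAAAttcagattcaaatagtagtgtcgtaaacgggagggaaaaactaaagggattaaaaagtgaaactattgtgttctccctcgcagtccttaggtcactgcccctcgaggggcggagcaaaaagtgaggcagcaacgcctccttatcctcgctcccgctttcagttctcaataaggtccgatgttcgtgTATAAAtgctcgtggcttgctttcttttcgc

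The first zinc finger gene in map order with an entry looks different, as its promoter shows with each CpG dinucleotide in capitals.
ZNF322 (a zinc finger gene, chr6:26659747-26659996, minus strand, GRCh38.p14): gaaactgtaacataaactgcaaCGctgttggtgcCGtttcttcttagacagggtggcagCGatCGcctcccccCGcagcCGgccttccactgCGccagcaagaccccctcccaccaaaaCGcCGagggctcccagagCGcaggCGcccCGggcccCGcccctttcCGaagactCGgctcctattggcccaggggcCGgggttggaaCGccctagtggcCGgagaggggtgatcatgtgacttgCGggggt
The 250 bases of ZNF322 are 65.6% G or C and hold 19 CpG, while those of H2AC4, H2BC3, H3C1 and H4C2 are 40.4, 38.8, 36.4 and 46.0% G or C and hold 5, 3, 5 and 13 CpG.

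Over the RefSeq promoters, which run from 250 bases before to 50 after each start, the histone and zinc finger genes of the stretch had different motifs. Entries existed for 48 of the 53 histone genes (52 promoters) and 11 of the 14 zinc finger genes (19 promoters). TATAAA stood in 65.4% of histone promoters, in 0 of 19 zinc finger promoters and in 11.5% of all 35093 promoters. CCAAT stood in 86.5% of histone promoters, 31.6% of zinc finger promoters and 34.6% of all. Among H4 promoters alone, 3 of 10 held CCAAT. The octamer stood in 40.4% of histone promoters and in 1.77% of all, with 8 of 10 H2A and 12 of 16 H2B promoters among its carriers and 0 of 10 H4 promoters. Median G and C content was 42.3% for histone promoters, 57.7% for zinc finger promoters and 58.7% for all. A G-quadruplex motif was taken as 4 runs of 3 or more G with 1 to 7 bases between runs, on either strand, whether or not it overlapped one of the boxes. It stood in 3 of 52 histone promoters (5.77%) and in 0 of 19 zinc finger promoters, against 8771 of all 35093. The count for zinc finger promoters rested on the limit to the loops: with 1 to 12 bases between runs, 5 of 19 (26.3%) held the motif, against 37.8% of all promoters and 7.69% of histone promoters.

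The 3 histone promoters with that motif belong to the linker histone gene H1-1 and to the H4 genes H4C6 and H4C8. Their matched stretches follow, 5′ to 3′ on the strand that holds the G runs, which are in capitals.
H1-1 (chr6:26017854-26017879, GRCh38.p14, gene strand): GGGGGcgctaGGGcgcgaGGGGcGGG
H4C6 (chr6:26240228-26240257, GRCh38.p14, opposite strand): GGGaaggaaaGGGGGcggtgaGGGtaGGGG
H4C8 (chr6:26285631-26285653, GRCh38.p14, gene strand): GGGctGGGctatgcGGGGtGGGG
All 3 end upstream of the start, 67, 136 and 97 bases before it. These letters describe the DNA and say nothing of whether a quadruplex forms or BAZ2B binds there.

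**Figure D1:**
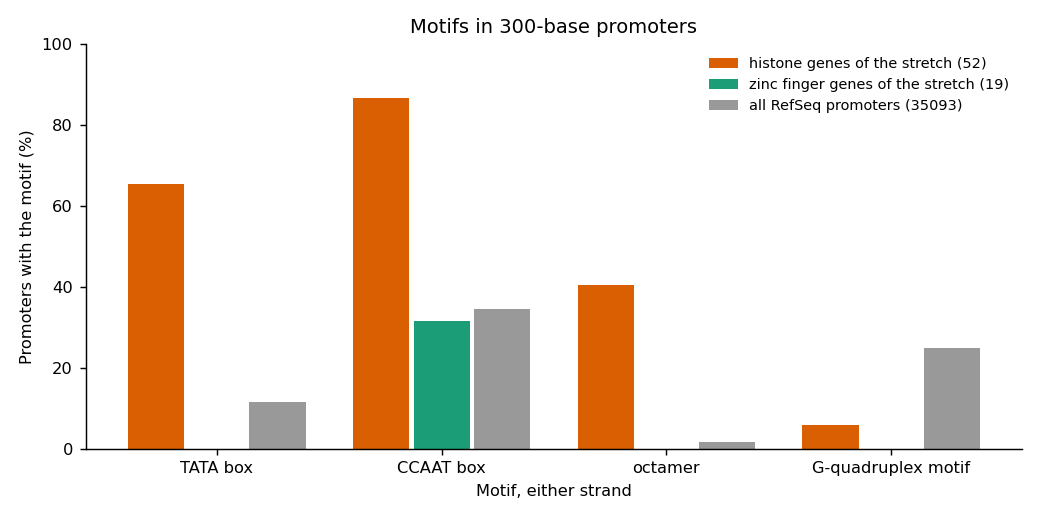
Share of RefSeq promoters (%, vertical axis) that hold each of 4 motifs on either strand (horizontal axis), for histone genes of the stretch (52 promoters), zinc finger genes of the stretch (19) and all promoters of the table (35093). The bars of the histone genes are the tallest for the TATA, CCAAT and octamer motifs, and all RefSeq promoters have the tallest bar for the G-quadruplex motif.

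H3K4me3 peaks lay close together in the window, and anti-HA peaks lay on top of them. The 152 H3K4me3 peaks gave 50.7 per Mb and covered 146 kb, or 4.88% of the window. The 83 HA-BAZ2B peaks covered 80.7 kb and the 22 WT peaks 18.0 kb. Neighbouring H3K4me3 summits were a median of 14.2 kb apart, against 61.5 kb over the whole list, and 62 of 151 gaps were 10 kb or shorter. HA-BAZ2B summits were a median of 21.2 kb apart in the window and 129 kb over the whole list, and WT summits 44.9 and 379 kb. On a grid of 3 Mb windows, none held more H3K4me3 peaks: the next had 99 each, on chromosome 19 from 44000001 and from 47000001.

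**Figure D2:**
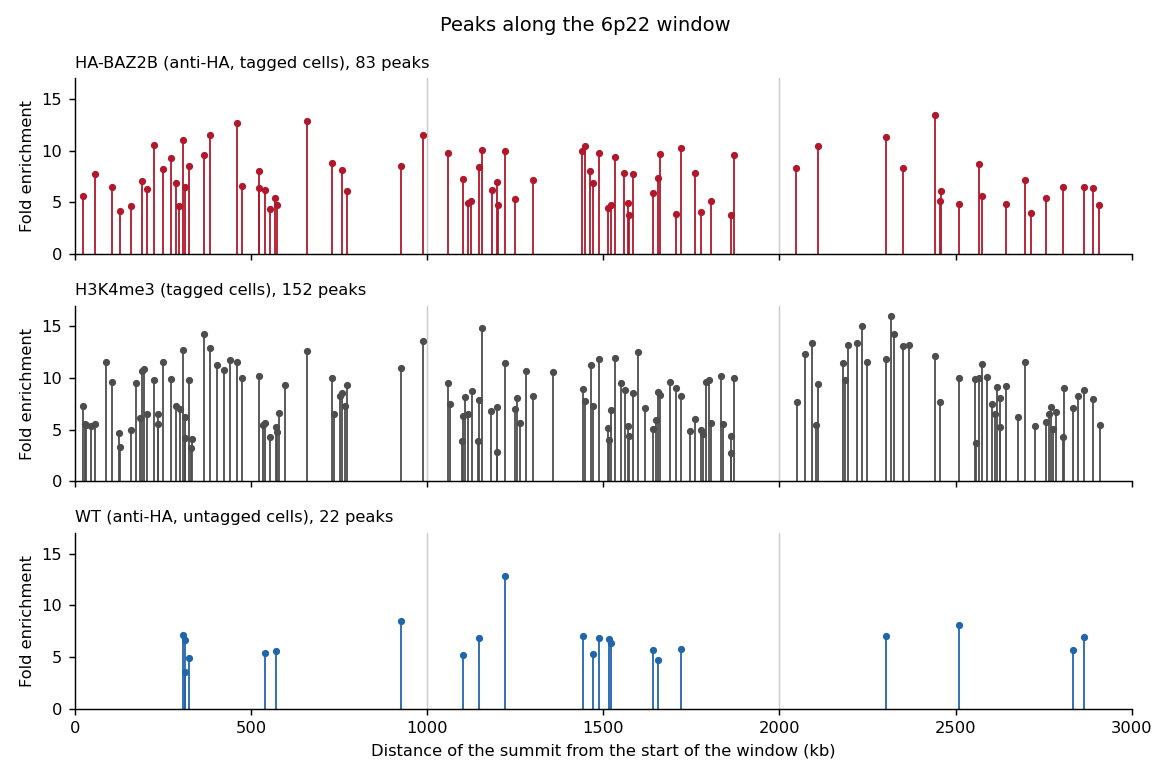
Fold enrichment of each peak (vertical axis) against the distance of its summit from the start of the window in kb (horizontal axis), for HA-BAZ2B (83 peaks), H3K4me3 (152) and WT (22). Grey lines mark each full Mb. WT peaks begin 305 kb into the window and leave a gap of 583 kb in the middle of it, while HA-BAZ2B peaks occur in both stretches.

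An HA-BAZ2B peak overlapped 83 of the 152 H3K4me3 peaks by 1 bp or more (54.6%, 46.3 to 62.7%), against 39.5% of all 17018. In the rest of chromosome 6 this share was 31.8% (28.5 to 35.3%). A WT peak lay on 22 of the 152 (14.5%, 9.30 to 21.1%), against 13.1% of the whole list and 6.52% (4.87 to 8.53%) of the rest of chromosome 6. At this overlap the interval of the WT share took in the value of the whole list, and that of the HA-BAZ2B share lay above it. Where the WT peak had to cover 50% or more of the H3K4me3 peak, the WT share was 11.8% in the window and 6.34% in the rest of the list, so the share of the untagged background was also the higher one in the window. No test was made of either difference, because all peaks of a list come from the same libraries. Where only the 6794 H3K4me3 peaks with the highest −log10 q were kept, to equal the HA-BAZ2B list in length, 11 members were left and the shares were 63.6% in the window and 63.2% in the rest. Over the first 2 Mb of the window alone, 62.6% of H3K4me3 peaks carried an HA-BAZ2B peak. Of the 294 windows of 3 Mb with at least 20 H3K4me3 peaks, the 6p22 window ranked 44 by HA-BAZ2B share and 123 by WT share, counting from the highest. Over the next 11 windows by number of H3K4me3 peaks, HA-BAZ2B shares ran from 33.8 to 56.1%. The lowest was on chromosome 19 from 2000001 and the highest on chromosome 16 from 2000001. Nearest to the 6p22 window were 55.6% on chromosome 16 from 29000001 and 53.5% on chromosome 19 from 47000001.

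Seen from the anti-HA side, nearly every member sat on an H3K4me3 peak. Of the 83 HA-BAZ2B peaks, 82 did so (98.8%, 93.5 to 100.0%), against 99.0% of the whole list. The exception was a weak peak of 292 bp at chr6:28715162-28715453, with a fold enrichment of 3.93 and a −log10 q of 2.41. All 22 WT peaks sat on an H3K4me3 peak (84.6 to 100.0%), against 93.4% of the whole list. A WT peak overlapped 19 of the 83 HA-BAZ2B peaks (22.9%, 14.4 to 33.4%), against 28.7% of the whole list and 17.8% of the rest of chromosome 6. Of the 22 WT peaks, 19 lay under an HA-BAZ2B peak (86.4%, 65.1 to 97.1%), against 81.0% of the whole list. With summits within 500 bp required instead, this share was 54.5% in the window and 64.5% in the rest, which turned the direction.

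By the anti-HA peaks they carried, the H3K4me3 peaks of the window fell mainly into 2 groups. Both anti-HA lists had a peak on 19 of them (12.5%), against 11.3% of the whole list. HA-BAZ2B alone marked 64 (42.1%, 34.2 to 50.4%), against 28.2%. WT alone marked 3 (1.97%), against 1.79%. Neither list marked 66 (43.4%, 35.4 to 51.7%), against 58.7%.

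The H3K4me3 peaks of the window were weaker and narrower than those of the list as a whole. Their median −log10 q was 21.8 (interquartile range 13.3 to 32.5), against 42.04 over all H3K4me3 peaks. Their median width was 900 bp against 1132 bp, and their median fold enrichment was 8.21 against 9.07. HA-BAZ2B members showed the same order, with a median −log10 q of 12.5 against 28.5, a width of 938 bp against 1219 bp and a fold enrichment of 6.95 against 8.16. WT members did not: their median −log10 q was 13.6 against 10.3, their width 761.5 bp against 639 bp and their fold enrichment 6.51 against 6.42. Among the 294 grid windows with at least 20 H3K4me3 peaks, the 6p22 window had the fourth lowest median −log10 q.

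Among H3K4me3 peaks of like −log10 q, those of the window carried HA-BAZ2B peaks more often than others at the low end of the scale. All 17018 peaks were divided by −log10 q into 4 groups of equal size, with limits at 22.1, 42.04 and 57.6, and 133 of the 152 members fell into the lower pair of groups. In the weakest group, 30 of 77 members carried an HA-BAZ2B peak (39.0%, 28.0 to 50.8%), against 11.6% (10.6 to 12.6%) of the rest of the list. In the next group, 41 of 56 did (73.2%, 59.7 to 84.2%), against 27.3% (26.0 to 28.7%). The intervals of the window and the rest lay apart in these groups.

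In the 2 stronger groups the intervals overlapped: 7 of 13 members carried an HA-BAZ2B peak in the third (53.8%, 25.1 to 80.8%) and 5 of 6 in the fourth (83.3%, 35.9 to 99.6%), against 48.3% and 69.8% of the rest. The rest of chromosome 6 had shares of 11.4, 34.9, 39.7 and 52.5% in the 4 groups, in order of strength. The next 11 windows of 3 Mb by number of H3K4me3 peaks, which are also dense, had 15.4, 35.1, 53.3 and 74.3%.

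WT peaks were fewer in these groups. In the weakest group 9 of 77 members carried one (11.7%, 5.49 to 21.0%), against 7.75% of the rest, and in the next 8 of 56 did (14.3%, 6.38 to 26.2%), against 6.89%. The intervals of the window took in the shares of the rest in both groups. In the third group 1 of 13 members carried a WT peak (7.69%), against 12.7% of the rest. In the fourth 4 of 6 did (66.7%, 22.3 to 95.7%), against 24.8% of the rest and 11.9% (6.29 to 19.8%) of the rest of chromosome 6. Grouping by width gave HA-BAZ2B shares of 30.9, 52.8, 84.0 and 89.5% in the window, from narrow to wide, against 14.5, 33.1, 48.6 and 61.2% in the rest. The next 11 windows by number of H3K4me3 peaks had 17.4, 35.7, 57.0 and 67.3%. The WT shares by width were 7.27, 13.2, 36.0 and 10.5% in the window, against 7.59, 9.05, 13.8 and 21.8% in the rest. In the third group by width, 9 of 25 members carried a WT peak, and its interval of 18.0 to 57.5% lay apart from that of the rest, 12.7 to 14.8%. The next 11 windows by number of H3K4me3 peaks had WT shares by width of 9.74, 12.8, 14.8 and 29.3%. Their interval in the third group, 10.5 to 20.0%, overlapped that of the 6p22 window.

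With grouping by fold enrichment, the window had a higher HA-BAZ2B share than the rest in all 4 groups. The HA-BAZ2B shares were 50.0, 65.6, 51.6 and 54.8% in the window, from low to high, against 33.4, 42.0, 41.9 and 40.4% in the rest. In the 2 lower groups the intervals of the window, 36.6 to 63.4% and 46.8 to 81.4%, lay apart from those of the rest. In the 2 higher groups they overlapped. The next 11 windows by number of H3K4me3 peaks had 39.5, 49.2, 49.0 and 50.3%, and their intervals overlapped those of the window in all 4 groups.

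**Figure D3:**
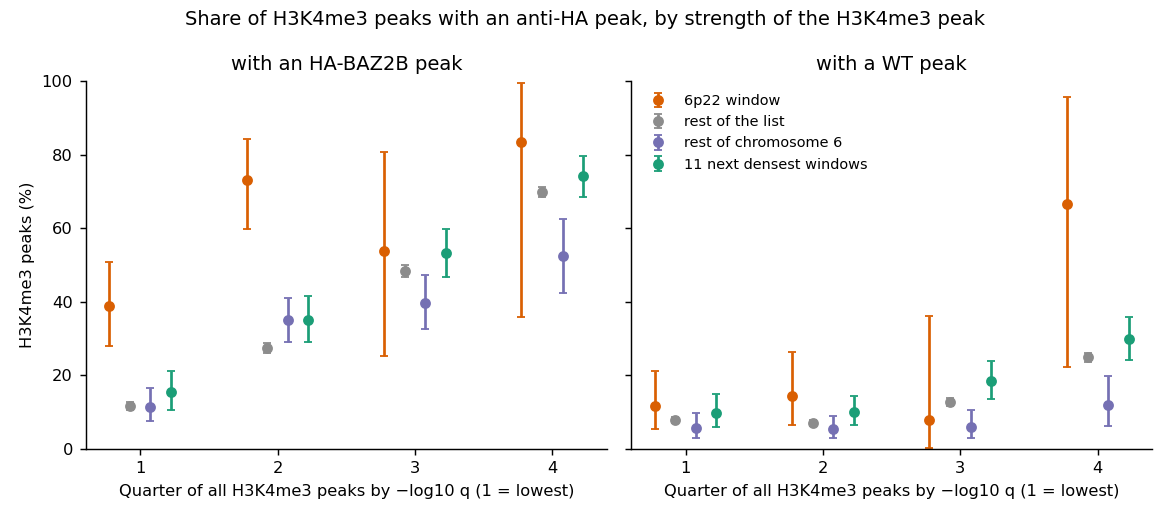
Share of H3K4me3 peaks (%, vertical axis) that carry an HA-BAZ2B peak (left panel) or a WT peak (right panel), in 4 groups of equal size by the −log10 q of the H3K4me3 peak (horizontal axis, 1 = lowest), with bars for exact 95% binomial intervals. In groups 1 and 2 the HA-BAZ2B share of the 6p22 window is 39.0% and 73.2%, above the other 3 sets, while in the same groups the intervals of the WT share overlap between the sets.

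The kept lists also differ in how many called peaks passed the recurrence filter. Peak names carry the number of the peak in its replicate's own calls, in genome order, so missing numbers count calls that were not kept. Between the first and last HA-BAZ2B member, 83 of 128 calls were kept (64.8%), against 43.2% over the whole file and 38.1% on chromosome 6. For H3K4me3, 152 of 165 were kept (92.1%), against 80.5% over the whole file and 81.6% on chromosome 6. For WT, 22 of 85 were kept (25.9%), against 25.3% over the whole file and 17.2% on chromosome 6. Each count for the window runs from the first to the last member of its list, so both end calls are kept ones. Calls nearer the limits are left out: for WT, 15 before the first member and 9 after the last were not kept, in stretches that reach outside the window. The part of the recurrence filter in the shares above was not tested.

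H3K4me3 peaks with an HA-BAZ2B peak had higher medians of −log10 q and width than those with neither anti-HA peak, while their medians of fold enrichment lay close. The median −log10 q was 32.6 for members with both anti-HA peaks, 25.2 with HA-BAZ2B alone, 9.29 with WT alone and 15.4 with neither. Median widths were 1194, 1026, 657 and 726.5 bp in the same order. Median fold enrichment was 8.64 with both, 8.47 with HA-BAZ2B alone and 8.10 with neither, and 4.21 for the 3 peaks with WT alone. Over the whole list, the median −log10 q was 59.1, 53.4, 16.5 and 31.6 in these classes.

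**Figure D4:**
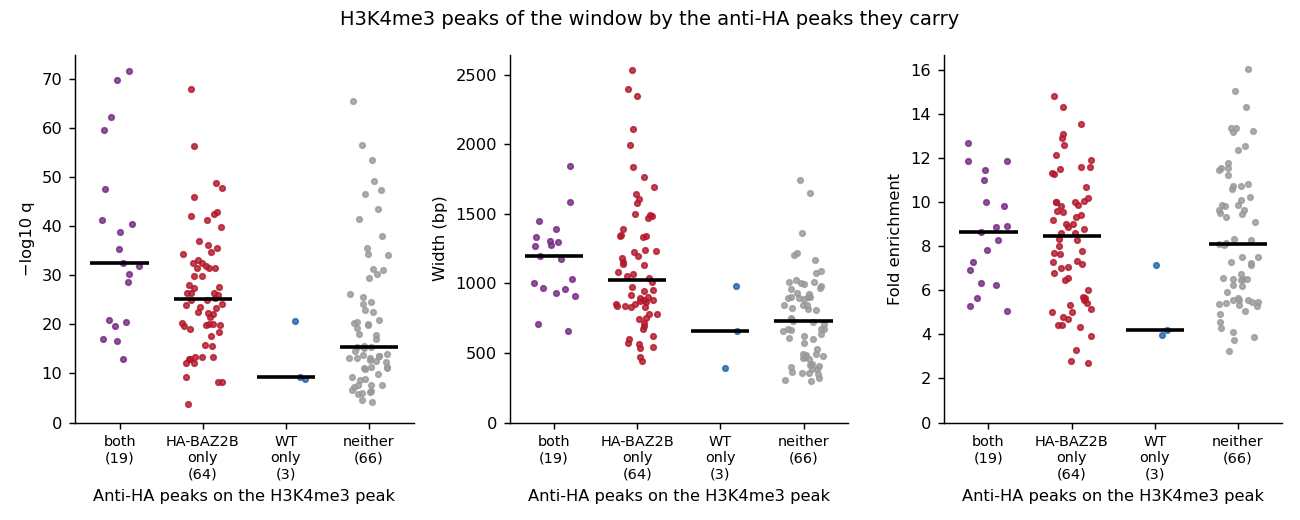
−log10 q, width in bp and fold enrichment (vertical axes) of each H3K4me3 peak of the window, by the anti-HA peaks on it (horizontal axis: both, HA-BAZ2B only, WT only, neither), with black lines at the medians. Medians of −log10 q and width are higher with an HA-BAZ2B peak than with neither, the classes overlap widely, and median fold enrichment is 8.64, 8.47 and 8.10 in the classes other than WT only.

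The HA-BAZ2B members with the highest fold enrichment stood on H3K4me3 peaks that were also of high fold enrichment. The first was chr6:28442411-28442967, with a fold enrichment of 13.5 in HA-BAZ2B and 12.2 in H3K4me3. Next came chr6:26659225-26660446 with 12.8 and 12.6, and chr6:26458095-26458934 with 12.7 and 11.6. The peaks at chr6:26987303-26988079 and chr6:26383308-26384182 both had 11.5 in HA-BAZ2B, against 13.6 and 12.9 in H3K4me3. All 5 lacked a WT peak, so they were also the HA-BAZ2B members of highest fold enrichment without one. Most HA-BAZ2B peaks lacked a WT peak: 64 of the 83 members and 4847 of the 6794 of the whole list.

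Of the 5 H3K4me3 members with the highest fold enrichment, 3 had no anti-HA peak. Of all H3K4me3 members 43.4% had none, and of the whole list 58.7%. By −log10 q the order differed: in the highest of the 4 groups, 5 of 6 members carried an HA-BAZ2B peak, against 69.8% of the rest. The highest fold enrichment, 16.0, was at chr6:28317437-28318247, followed by 15.1 at chr6:28234776-28235445, and neither carried a peak of either anti-HA list. The same held for chr6:28323637-28324116, with 14.3. The peaks chr6:27156028-27156811 with 14.8 and chr6:26365342-26365811 with 14.3 carried HA-BAZ2B peaks of 10.04 and 9.54. Other H3K4me3 peaks of high fold enrichment without a kept anti-HA peak were chr6:28092021-28092911 and chr6:28219262-28220286, both with 13.4. Of the H3K4me3 members without an anti-HA peak, the 5 with the highest fold enrichment all lay in the last Mb. In the stretches between HA-BAZ2B members that hold them, 3, 6 and 2 HA-BAZ2B calls were not kept.

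Each of the 5 WT members with the highest fold enrichment lay under an HA-BAZ2B peak, of varying height. So did 19 of all 22 WT members (86.4%) and 81.0% of the whole list. The highest WT member, chr6:27218955-27219803, had a fold enrichment of 9.96 in HA-BAZ2B and 12.9 in WT. At chr6:26924011-26924771 both lists had about the same value, 8.55 in HA-BAZ2B and 8.54 in WT. At chr6:28510398-28511172 it was 4.81 in HA-BAZ2B, with a −log10 q of 4.19, and 8.11 in WT, while at chr6:26305141-26305739 it was 11.02 in HA-BAZ2B and 7.14 in WT. The fifth, chr6:27440222-27441276, had 9.99 in HA-BAZ2B and 7.08 in WT. These values come from different libraries and do not measure a change. Only 3 WT members had no HA-BAZ2B peak: chr6:26311575-26312105 with 3.57, chr6:27515119-27515652 with 6.73 (−log10 q 22.6) and chr6:28833785-28834757 with 5.65.

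The widest H3K4me3 members were low and broad. They spanned 2534 bp at chr6:26156579-26159112, 2397 bp at chr6:27804657-27807053 and 2351 bp at chr6:26204315-26206665, with fold enrichments of 5.03, 5.64 and 6.57. Each carried an HA-BAZ2B peak, of 1724, 2215 and 1758 bp, and none a WT peak. Other wide members were much the same. In the widest of the 4 groups by width, 17 of 19 members carried an HA-BAZ2B peak and 2 of 19 a WT peak. The shares in the rest of the list were 61.2% and 21.8%.

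Matched one to one, HA-BAZ2B peaks were narrower than the H3K4me3 peaks they lay on and kept their order of height and width. In 75 pairs the median ratio of widths was 0.819 (95% interval of the median 0.761 to 0.884), against 0.918 over the whole list, and 61 HA-BAZ2B peaks were the narrower. Their summits lay a median of 118 bp apart (64.0 to 166 bp), against 84.0 bp over the whole list. Across these pairs the fold enrichments had a Spearman's rho of 0.723, against 0.742 over the whole list. For the widths rho was 0.820, against 0.871 over the whole list. Both are descriptions over peaks of shared libraries. In 22 pairs of WT and H3K4me3 peaks the ratio of widths was 0.736, against 0.502 over the whole list, and rho was 0.615 for fold enrichment, against 0.229. Joined peaks were few: 3 HA-BAZ2B peaks, of 1935 to 2788 bp, spanned 2 H3K4me3 peaks each, and 2 H3K4me3 peaks carried 2 HA-BAZ2B peaks each.

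**Figure D5:**
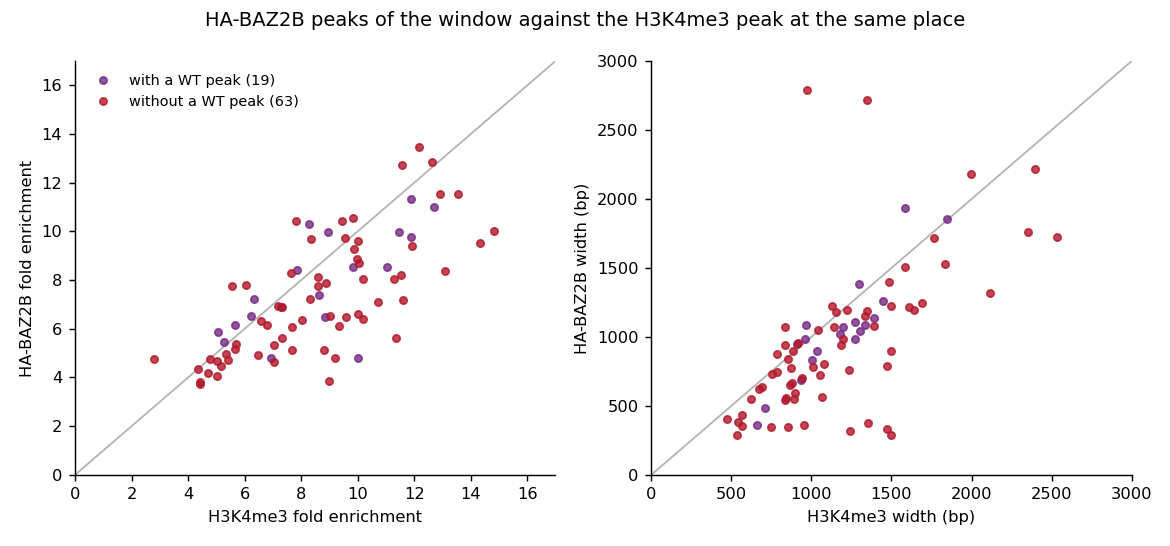
Fold enrichment (left panel) and width in bp (right panel) of HA-BAZ2B peaks of the window (vertical axes) against the H3K4me3 peak at the same place (horizontal axes), for 19 peaks with a WT peak and 63 without, with grey lines of equality. Most points lie below the line of equal width, and both measures run together, with rho of 0.723 and 0.820 over the 75 pairs that match one to one.

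Along the window the HA-BAZ2B share changed, with the last Mb the lowest. In the first Mb 31 of 52 H3K4me3 peaks carried an HA-BAZ2B peak (59.6%, 45.1 to 73.0%), in the second 36 of 55 (65.5%, 51.4 to 77.8%) and in the third 16 of 45 (35.6%, 21.9 to 51.2%). The interval of the third Mb lay apart from that of the second by a narrow margin and overlapped that of the first. WT peaks lay on 7, 11 and 4 H3K4me3 peaks in the 3 Mb. Along the 3 Mb the H3K4me3 peaks had a median −log10 q of 22.9, 20.1 and 20.7, a median width of 906, 962 and 844 bp and a median fold enrichment of 7.82, 7.80 and 9.11. The part of these measures in the shares was not tested. Among peaks above the weakest of the 4 groups, 22 of 28 carried an HA-BAZ2B peak in the first Mb, 20 of 25 in the second and 11 of 22 in the third. The build hg19 also holds alternative haplotypes of the major histocompatibility complex, which by general knowledge reach into the last Mb. On 7 such haplotypes the lists held 198 HA-BAZ2B, 533 H3K4me3 and 22 WT peaks, and their part in the values of the last Mb was not tested.

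H3K4me3 peaks gathered in blocks, defined as runs whose neighbouring summits lay 25 kb or less apart. At this limit there were 31 blocks, against 90 at 10 kb and 13 at 50 kb, so the blocks depend on it. Of the 31, 14 held 5 or more peaks and 116 of the 152 members. An HA-BAZ2B peak lay on 83 of these 152 (54.6%) and a WT peak on 22 (14.5%). All 14 blocks had at least 1 HA-BAZ2B peak, and 8 of them had no WT peak. Whether these block counts differ from what such percentages give in runs of this size was not tested. The largest block, chr6:26156579-26332201, held 19 H3K4me3 peaks, of which 11 carried an HA-BAZ2B and 4 a WT peak. In chr6:27512831-27662402 these numbers were 15, 10 and 4. In chr6:27440050-27487403 all 5 H3K4me3 peaks carried an HA-BAZ2B peak and 3 a WT peak. In chr6:27688956-27807053 the numbers were 10, 5 and 1.

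Of the blocks of 5 or more, 3 lay in the last Mb. In chr6:28554680-28642300, with 11 H3K4me3 peaks, 3 carried an HA-BAZ2B and 0 a WT peak, and in chr6:28757137-28807141, with 7, the numbers were 2 and 0. The block chr6:28047752-28110139 had 5, 2 and 0. The 7 blocks of 5 or more not yet named lay between 26020651 and 27871456 and held 5 to 8 H3K4me3 peaks, of which 2 to 6 carried an HA-BAZ2B and 0 to 2 a WT peak. In bins of 100 kb, 2 of 30 had no H3K4me3 peak, 3 no HA-BAZ2B peak and 18 no WT peak.

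The longest stretch without an HA-BAZ2B member, 194 kb from 28109728 to 28303677, was not bare of H3K4me3. It held 6 H3K4me3 peaks with fold enrichments of 9.86 to 15.1. The replicate behind the HA-BAZ2B list had 6 calls there that were not kept, so a missing member does not mean that no HA-BAZ2B peak was called. WT lacked members over 583 kb from 27720414 to 28303596, where 8 of 23 H3K4me3 peaks carried an HA-BAZ2B peak and 13 WT calls were not kept. From the start of the window to 26305482, 13 of 22 H3K4me3 peaks carried an HA-BAZ2B peak and none a WT peak. Between the nearest WT peak below the window, at 24743669, and that position, 15 WT calls were not kept.

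At the lower limit the first HA-BAZ2B and H3K4me3 members were chr6:26020716-26022429 and chr6:26020651-26022413, with fold enrichments of 5.63 and 7.32. The nearest peaks below the limit were chr6:25992892-25993679 in HA-BAZ2B and chr6:25992131-25993693 in H3K4me3, with 11.3 and 9.60. At the upper limit the last members were chr6:28908078-28909156 in HA-BAZ2B and chr6:28908076-28909466 in H3K4me3, with 4.71 and 5.42, and the last WT member was chr6:28863699-28864354 with 6.94. The next HA-BAZ2B peak above began at 30034543, the next H3K4me3 peak at 29600203 and the next WT peak at 31509896.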

How the data were processed

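CUT&Tag peaks of 9 A549 libraries were analysed from 3 deposited lists, 1 per group, grouped by the sample titles. Per the submitters' processing notes, the tools were Bowtie2 2.4.5, MACS2 2.1.4, SAMtools 1.15.1, Picard and bedtools, and the builds were dm6 and hg19. The sources used here give neither the settings and control of the peak caller nor whether the Drosophila spike-in described in the labels scaled any value. Per the labels, peaks present in at least 2 replicates were kept, with rows from the largest replicate file. By the peak names this was HA-BAZ2B replicate 3, H3K4me3 replicate 1 and WT replicate 2, so each score is that of 1 library. The deposited fold enrichment is a ratio over the authors' peak caller's own background. The deposited −log10 q is the authors' significance of a peak. Start, end and summit are positions as deposited by the authors, written here counting from 1. Depth is unknown.

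Overlaps (1 bp or more), shares, medians with order-statistic intervals, blocks and motif counts were computed with pandas 2.3.3, numpy 2.4.6 and scipy 1.17.1 under Python 3.11.15, and overlaps, blocks and motifs were checked on simulated data. No test was made: there was 1 list per group. Only the autosomes, X and Y were used. Regions named are, in each list, the 5 with the highest fold enrichment, the 5 strongest HA-BAZ2B members without WT, the 3 widest H3K4me3 members, anti-HA members without H3K4me3, WT members without HA-BAZ2B, the 5 strongest H3K4me3 members without anti-HA, blocks of 5 or more, and those nearest the limits. For named regions, strongest means highest fold enrichment. The window, the lists of genes and these rules were chosen with earlier results of these data known. Gene classes and sequences of the peaks were planned for a genome or annotation of hg19, which was not used here. Promoters came from RefSeq on GRCh38.p14 instead.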

Additional observations from a re-analysis of the deposited data

How the results depend on the processing

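Of 58 alternatives over 24 results, 46 left the value within the interval of the one reported, or within 1.5 times of it for block counts, and 12 did not. The share of H3K4me3 members with an HA-BAZ2B peak was 49.3% with an overlap of 50% of the peak (36.9% in the rest), 49.7% at a −log10 q of 5 or more (38.6%), 48.0% with summits within 500 bp (35.5%) and 62.6% with the region ending at 28000000 (39.4%). With both lists at the length of the shorter it was 63.6% (63.2%), from 11 members. Under that limit the share of H3K4me3 members with a WT peak was 66.7% (2 of 3), of HA-BAZ2B members with a WT peak 50.0% (4 of 8), of WT members with an HA-BAZ2B peak 18.2%, and of HA-BAZ2B and WT members on an H3K4me3 peak 9.64% and 9.09%. Fewer peaks enter under this limit by its construction. With summits within 500 bp, 88.0% of HA-BAZ2B members met an H3K4me3 peak and 54.5% of WT members an HA-BAZ2B peak (64.5% in the rest). With the region ending at 28000000, 100.0% of HA-BAZ2B members lay on an H3K4me3 peak. Joining at 10 kb gave 90 blocks and at 50 kb 13, against 31. With loops of up to 12 bases, 26.3% of zinc finger promoters held a G-quadruplex motif, against 0 with loops of up to 7.

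No paired analysis was possible because each group has 1 list and no value per replicate, and for the same reason no replicate was left out. Other distances to gene starts and whole-peak sequences were not run, since no annotation or genome of hg19 was used. Intervals cover counting error over peaks, not the spread between cultures. How depth limits the number of peaks is unknown.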
